A study of Mus musculus with 3 samples.

Results

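Slco4c1, Adamts18, Met, Emx2, Wnt6 and Cxcr4 are genes known to be active at the tips of the ureteric bud, the epithelial tree of the embryonic kidney. They were described here as markers that stand beside the GDNF-RET branching signal itself. The rule took the probe sets annotated to exactly 1 of these symbols, and for each gene the one with the highest mean. It found 6 genes, each with 1 probe set, among the 19938 genes of the table. The probes were on Affymetrix Mouse Gene 1.0 ST arrays, and the tissue was kidney of C57BL/6 mouse embryos taken at embryonic day 11.5. The explants lay on Transwell filters for 48 h in 1 of 3 media. These were DMEM with 10% FBS, called serum here, DMEM alone, called serum-free, and the latter with retinoic acid. Each medium had 1 array, so no difference has an error or a p-value. The dose of retinoic acid and the number of kidneys behind each RNA are not given in the labels. In whole explants, fewer cells of a type and less RNA per cell cannot be told apart.

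The ureteric bud grows into the metanephric mesenchyme and branches at its tips. Mesenchyme secretes GDNF, and the receptor RET with its co-receptor GFRA1 receives it in the tip cells, where the transcription factors ETV4 and ETV5 act downstream. Retinoic acid signalling in the stroma is known to sustain Ret in the ureteric bud. Of the markers, Slco4c1 encodes an organic anion transporter, Adamts18 a secreted metalloprotease, Met the receptor tyrosine kinase for hepatocyte growth factor, and Cxcr4 the receptor for the chemokine CXCL12. Emx2 encodes a homeobox transcription factor without which the bud fails to branch, and Wnt6 encodes a secreted ligand of the ureteric epithelium. Met and Cxcr4 are known to depend on ETV4 and ETV5 in the bud.

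RefSeq promoters (GRCm38.p6) were matched for 6 of 6 markers. Each runs from 250 bases before the start of transcription to 50 after it. Shown here are those of the 3 markers that differed at least 2-fold in some comparison, because the results turn on them, and that of Cxcr4 as a marker that did not. Capitals mark GGGCGG, the GC box bound by SP family factors, or its reverse complement CCGCCC. In Cxcr4 they also mark TATAAA and its reverse complement TTTATA, which overlap there.
Slco4c1, chr1:96872122-96872421, minus strand: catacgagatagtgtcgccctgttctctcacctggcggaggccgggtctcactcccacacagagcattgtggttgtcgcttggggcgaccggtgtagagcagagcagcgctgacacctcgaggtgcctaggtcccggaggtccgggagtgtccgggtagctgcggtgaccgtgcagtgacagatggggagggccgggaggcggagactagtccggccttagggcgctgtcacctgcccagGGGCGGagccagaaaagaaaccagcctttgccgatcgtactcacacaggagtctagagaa
Adamts18, chr8:113848790-113849089, minus strand: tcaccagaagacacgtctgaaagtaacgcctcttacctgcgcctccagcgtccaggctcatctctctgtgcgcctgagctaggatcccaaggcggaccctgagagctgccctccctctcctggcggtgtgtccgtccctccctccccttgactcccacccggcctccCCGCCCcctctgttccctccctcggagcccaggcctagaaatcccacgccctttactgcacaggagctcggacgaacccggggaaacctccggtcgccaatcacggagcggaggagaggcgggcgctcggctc
Met, chr6:17463707-17464006, plus strand: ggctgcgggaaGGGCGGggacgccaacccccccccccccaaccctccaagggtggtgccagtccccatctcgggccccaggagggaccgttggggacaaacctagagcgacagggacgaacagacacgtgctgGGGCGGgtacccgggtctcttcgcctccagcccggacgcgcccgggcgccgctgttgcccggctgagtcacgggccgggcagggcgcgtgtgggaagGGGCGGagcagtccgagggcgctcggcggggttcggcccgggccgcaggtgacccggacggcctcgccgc
Cxcr4, chr1:128592250-128592549, minus strand: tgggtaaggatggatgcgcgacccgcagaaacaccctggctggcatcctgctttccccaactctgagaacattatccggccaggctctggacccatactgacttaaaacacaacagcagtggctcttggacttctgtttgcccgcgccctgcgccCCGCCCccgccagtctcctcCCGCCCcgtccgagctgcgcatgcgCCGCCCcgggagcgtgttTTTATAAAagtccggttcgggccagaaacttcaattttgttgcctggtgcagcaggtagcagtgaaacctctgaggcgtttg

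The GC box was present in 6 of 6 marker promoters and in 35.7% of 32841 promoters of the same length. Slco4c1 and Adamts18 held 1 each, on opposite strands, and Met held 3. TATAAA lay in 1 of the 6, that of Cxcr4, and in 13.6% of all. Those 2 motifs were chosen after the sequences were seen. The retinoid receptor core site AGGTCA, sought on both strands, was in 0 of 6 and in 16.3% of all. Its direct repeat with a gap of 5 bases was thus in 0 of 6, and in 0.00913% of all. The ETS core CCGGAA was in 0 of 6 and in 14.9% of all. This says only that these letters are not in these windows. All 6 promoters were richer in CG dinucleotides than the median promoter, with 20 in Cxcr4 to 34 in Met against a median of 7. Their GC content ran from 59.3% in Cxcr4 to 76.7% in Wnt6, against a median of 52.7%.

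The deposited intensities had medians from 81.5 to 85.5 on the 3 arrays. Levels below are log2 intensities, and differences are between log2 intensities. A floor was set at 7.12, the median over genes and arrays. A gene was called higher or lower when its levels differed at least 2-fold and the larger of them reached that floor. As a check of the tissue, 12 of 12 nephron progenitor genes were at or above the floor on every array. Of 18 measured ureteric epithelium genes, 18 reached it in serum, 16 without serum and 16 with retinoic acid. Proximal tubule genes, which mark a later nephron, reached it in 1, 1 and 0 of 8 cases in the same order. Embryo sex is not given and its markers moved with the media. Xist stood at 10.84 in serum, 11.48 without it and 9.79 with retinoic acid, and the Y-linked Eif2s3y at 8.38, 7.46 and 8.64. The part of sex in the results below was not tested.

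The 6 tip markers followed different orders over the media. Slco4c1 and Adamts18 were lowest in serum-free medium. Met and Emx2 were highest in serum and lowest with retinoic acid. Cxcr4 was highest in serum-free medium, and Wnt6 had 1 value on all 3 arrays. Among 10241 genes at or above the floor on at least 1 array, 20.9% were lowest in serum-free medium and 18.4% followed the order of Met and Emx2. A further 11.9% were highest in serum-free medium and 21.2% were equal on all 3 arrays. These orders count any difference, however small. Both levels of Slco4c1 on the serum-free arrays lay under the floor, so its lowest medium is not resolved.

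**Figure D1:**
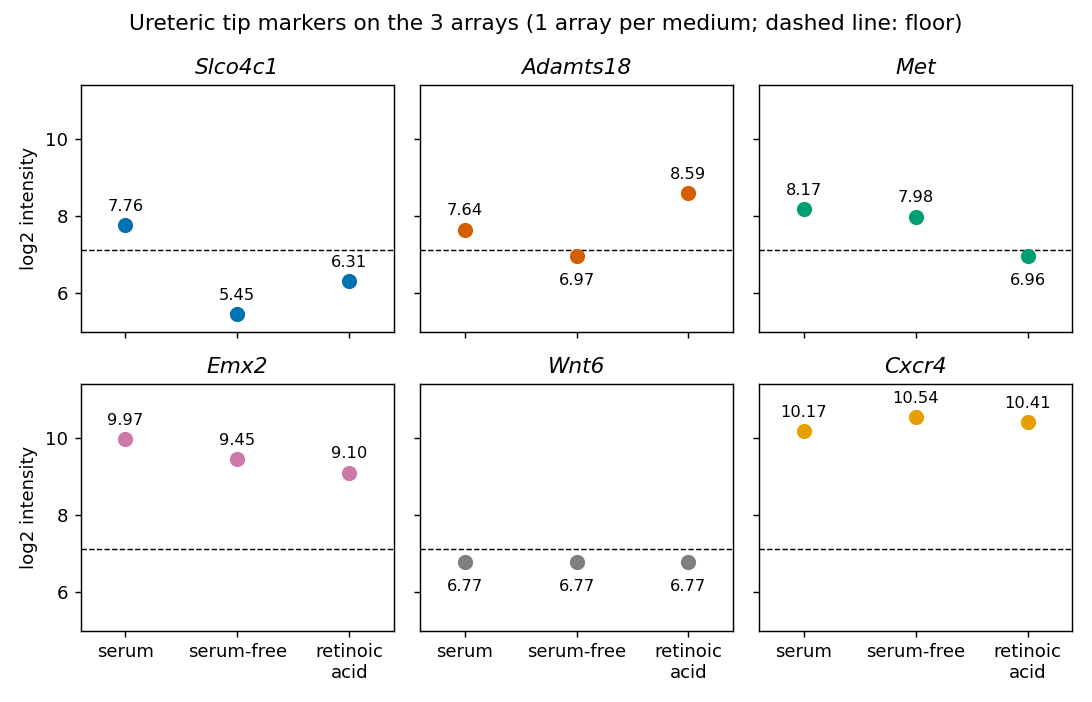
Level of each tip marker (log2 intensity, vertical axis) in the 3 media (horizontal axis), 1 point per array, with the dashed line at the floor of 7.12. Slco4c1 drops from 7.76 to 5.45 without serum, Adamts18 peaks at 8.59 with retinoic acid, Met is lowest at 6.96 with retinoic acid, and Wnt6 lies at 6.77 throughout.

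The first comparison asked what differed between serum-free explants with and without retinoic acid. Adamts18 was 3.08-fold higher with it, and was the 1 marker of 6 called higher, where 1.05% of 10111 genes were. Met was 2.03-fold lower, and was the 1 of 6 called lower, where 0.613% of genes were. Slco4c1 was higher by 0.86 with both levels under the floor, and Emx2 and Cxcr4 differed by -0.34 and -0.13. The second comparison asked how they differed when serum was absent. Slco4c1 was 4.95-fold lower without serum, the 1 of 6 markers called, where 0.699% of 10156 genes were called lower. No marker was called higher, where 0.876% of genes were. The third set retinoic acid in serum-free medium against serum. In it Slco4c1 and Met, 2 of the 6, were called lower, where 0.816% of 10169 genes were, and 0 of 6 were called higher, where 1.04% of genes were. The shares are over genes whose larger level reached the floor, as that of 4, 5 and 5 of the 6 markers did in the comparisons as ordered. The 3 comparisons share their arrays, so their values are not independent of each other. In each call of a marker the lower of the levels lay under the floor, so its size is uncertain.

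**Figure D2:**
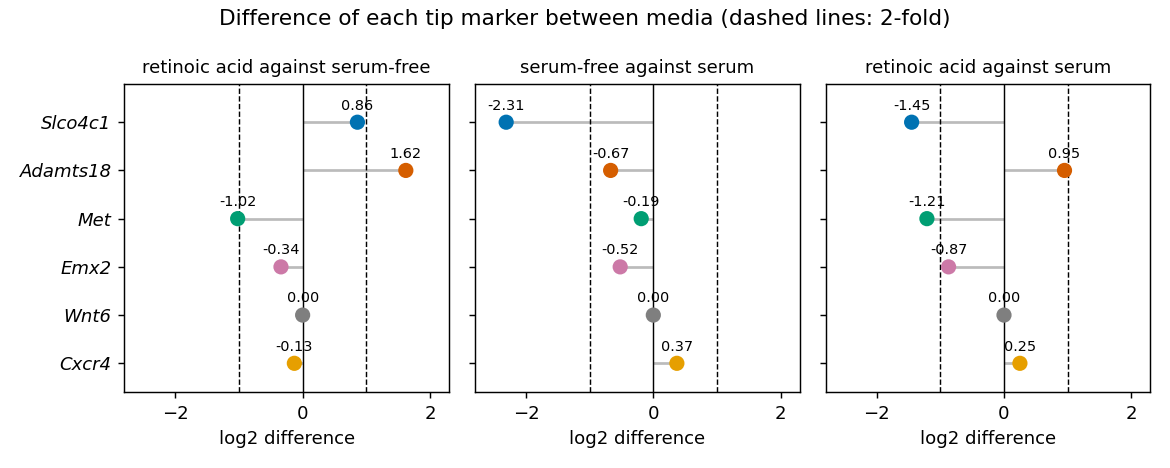
Difference of each tip marker (log2, horizontal axis) in the 3 comparisons, with dashed lines at 2-fold. Points past the lines are Adamts18 at 1.62 and Met at -1.02 for retinoic acid against serum-free, Slco4c1 at -2.31 for serum-free against serum, and Slco4c1 at -1.45 and Met at -1.21 for retinoic acid against serum.

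The only technical yardstick in these data is a second probe set of the same gene. Over genes with more than 1 probe set that reached the floor, the absolute gap between the chosen difference and each other one had a 95th percentile of 0.28, 0.28 and 0.33 in the comparisons as ordered above. None of the 6 markers has a second probe set. That covers probes on an array and not the spread between explants. By it, the levels of Met in serum and serum-free medium (-0.19), and those of Cxcr4 with retinoic acid and in either other medium (-0.13 and 0.25), lay within these limits. The remaining differences of Adamts18, Met, Emx2 and Cxcr4 and those of Slco4c1 against serum were larger than this. The limit does not apply to Slco4c1 between the serum-free arrays, where both levels lay under the floor.

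Slco4c1, the transporter gene, had an intensity of 217.2 in serum, 43.85 without it and 79.55 with retinoic acid. On the log2 scale these are 7.76, 5.45 and 6.31, so that only the serum array lay above the floor. Without serum it was lower by 2.31, and among the 10156 genes compared only 4 had a larger decrease. With retinoic acid it was 2.73-fold below serum (-1.45), with 31 of 10169 genes lower still. A pseudocount of 32, which shrinks differences between low intensities, took the value without serum to -1.72. Of 14 other SLCO genes, which encode anion transporters of the same family, 2 reached the floor and 0 were called in any comparison. Over all genes 1.66%, 1.58% and 1.86% were called in either direction, so a count of 0 is near the background. The closest relative of Slco4c1, Slco4a1, stood at 6.10 on every array. Slco1a4 differed by -1.61 without serum and Slco2b1 by 1.03, both with levels under the floor.

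The genes nearest to Slco4c1 over the 3 arrays, by the distance between their pairs of differences (serum-free minus serum, and retinoic acid minus serum-free), were Arg2, Lhx1 and Papss2. Their distances were 0.40, 0.57 and 0.61 on the log2 scale, and 0 of 9998 genes searched lay within 0.25. Lhx1, a transcription factor gene of the ureteric bud and early nephron, stood at 8.71 in serum, 6.79 without it and 8.07 with retinoic acid. Between the serum-free arrays Lhx1 was higher by 1.28 with retinoic acid, where the value for Slco4c1 was 0.86. Arg2, an arginase gene, stood at 8.51, 6.53 and 7.61 in the same order.

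Adamts18, the metalloprotease gene, had an intensity of 199.2 in serum, 125.3 without it and 385.7 with retinoic acid, or 7.64, 6.97 and 8.59 on the log2 scale. It was highest with retinoic acid, and its serum-free level was the 1 under the floor. The increase of 1.62 with retinoic acid was exceeded by 39 of 10111 genes. Without serum it was lower by 0.67, and with retinoic acid it ended 1.94-fold above serum (0.95). Ret, the GDNF receptor gene, had its media in the same order, at 9.58 in serum, 8.42 without it and 9.92 with retinoic acid. Adamts16, a close relative, ran otherwise, from 7.47 in serum to 6.83 with retinoic acid. Of 17 other ADAMTS genes measured, 9, 10 and 10 reached the floor in the comparisons as ordered above and could be called. Of them 0 were called for retinoic acid against serum-free and 0 for serum-free against serum. These counts of 0 are near the shares over all genes, 1.66% and 1.58%. For retinoic acid against serum 1, Adamts5, was called lower (-1.10), where 0.816% of genes were.

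The nearest genes to Adamts18 were Mpp6, Stra6 and Tmem62, at distances of 0.13, 0.14 and 0.18, and 5 of the 9998 genes lay within 0.25. Stra6, which encodes a receptor that takes up vitamin A, stood at 9.94 in serum, 9.14 without it and 10.70 with retinoic acid. Mpp6, a scaffold protein gene, stood at 10.01, 9.23 and 10.78. Both were lower without serum and higher with retinoic acid by amounts close to those of Adamts18. With 3 arrays such a likeness describes a pair of differences and no more.

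Met, the hepatocyte growth factor receptor gene, had an intensity of 288.4 in serum, 252.4 without it and 124.6 with retinoic acid. In log2 units these are 8.17, 7.98 and 6.96, so the retinoic acid array had the single low value, which lay under the floor. The difference of -1.02 against serum-free medium only just reached 2-fold, and 56 of 10111 genes were lower. Against serum it was -1.21, with 49 of 10169 genes lower. With the same pseudocount the first of these became -0.86, which is under 2-fold.

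The ligand, activators and partners of MET were set beside it. Hgf, which encodes the ligand, was at 7.34 on every array. Of 14 genes of this axis, 10 or 11 reached the floor and 0 were called in any of the 3 comparisons. Over all genes the shares called in either direction were 1.66%, 1.58% and 1.86%, so a count of 0 is near the background. The median difference of the axis was 0.00 in each, as it was over all genes. Egfr, which encodes the epidermal growth factor receptor that acts with MET in ureteric branching, stood at 8.88, 8.83 and 9.54 in serum, serum-free medium and retinoic acid, a direction opposite to that of Met under retinoic acid (0.71). Spint1, an inhibitor of the proteases that activate HGF, stood at 9.84, 9.67 and 9.21, the same order as Met. The genes nearest to Met were Cldn9, Bgn and Adam8, at distances of 0.10, 0.11 and 0.13, with 11 genes within 0.25. Bgn encodes a matrix proteoglycan and stood at 11.36, 11.28 and 10.27.

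Cxcr4, the CXCL12 receptor gene, had the narrowest range (0.37) of the 5 markers that varied. Its intensity was 1149 in serum, 1488 without it and 1363 with retinoic acid, or 10.17, 10.54 and 10.41 in log2 units. The serum array was lowest, and the difference of 0.37 without serum was exceeded by 358 of 10156 genes. Its ligand gene Cxcl12 stood at 10.26, 9.78 and 9.41, so against serum it was lower where Cxcr4 was higher. Between the serum-free arrays both were lower with retinoic acid, Cxcl12 by -0.37 and Cxcr4 by -0.13. Ackr3, which encodes a scavenging receptor for the same ligand, stood at 8.45, 8.23 and 8.82, lowest where Cxcr4 was highest. Of 9 genes of the axis, 8 reached the floor in each comparison and 0 were called in any. Over the 9 the median differences were 0.00, -0.22 and -0.12 in the order of the comparisons. Beside the 1.66%, 1.58% and 1.86% called over all genes, a count of 0 is again near the background.

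CXCR4 is also made by endothelial and blood cells, and markers of those cells differed between the arrays. For serum-free against serum 1.58% of all genes were called. Of 16 endothelial genes, 0 were called and 14 were above 0, with a median of 0.42 beside the 0.37 of Cxcr4. Their summed intensity was 9585.8 in serum, 12819 without it and 11091 with retinoic acid, the same order as Cxcr4, with 15 of 16 at or above the floor on each array. Of 18 macrophage genes, 12 reached the floor for serum-free against serum, and 12 were called higher without serum and 0 lower. Over all genes 0.876% were called higher and 0.699% lower. The median of the 18 was 1.19. The summed intensity of the macrophage list was 4247.7, 12032 and 8490.9, with 9, 12 and 13 genes at or above the floor. Aif1, Itgam, Ptprc, Cd14 (5.27) and Cd163 (4.42) stayed under it throughout. The part of these cells in the level of Cxcr4 was not tested.

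Emx2, the homeobox gene, had an intensity of 1004 in serum, 698.2 without it and 549.8 with retinoic acid, or 9.97, 9.45 and 9.10 in log2 units. It was highest in serum and lowest with retinoic acid, and all 3 levels lay above the floor. The differences were -0.52 without serum, -0.34 with retinoic acid against serum-free medium and -0.87 with retinoic acid against serum, which is 1.83-fold and under the 2-fold rule. For the last of these, 113 of 10169 genes were lower. Its paralog Emx1 stayed under the floor, at 6.68, 6.67 and 6.62. EMX2 is also made in the embryonic gonad, and of 9 gonad and adrenal genes 2, 2 and 1 were at or above the floor in serum, serum-free medium and retinoic acid. The summed intensity of that list was 965.13, 1284.1 and 677.99. Of these sums the adrenal genes held a large part, Dbh with 297.0, 628.8 and 143.7 and Th with 103.1, 193.3 and 68.42. The sum is therefore no gauge of gonad cells. The gonad genes Lhx9 (6.76, 6.44 and 6.44) and Nr5a1 (6.14, 6.09 and 6.14) lay under the floor throughout, while Gata4 stood at 7.37, 6.78 and 6.89. Dbh, which makes noradrenaline, stood at 8.21, 9.30 and 7.17. The part of such cells in the level of Emx2 was not tested.

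Wnt6, the ligand gene, had an intensity of 109.2 on each of the 3 arrays, or 6.77, which is under the floor. RMA sums probes by median polish, which often returns the same value for several arrays, and 38.4% of the 19938 genes were equal on all 3. An exact tie is therefore no measure of equal expression. Of 18 other WNT ligand genes, 9 were likewise equal on all 3 arrays. Of these 18, only 5, 6 and 6 reached the floor in the 3 comparisons and could be called. Wnt4, the inducer of nephrons, was the only 1 called, higher by 1.42 with retinoic acid against serum-free and at -1.43 without serum. Over all genes 1.05% were called higher in the first and 0.699% lower in the second. For retinoic acid against serum 0 of the ligands were called, beside 1.86% of all genes in either direction. Wnt11, the tip ligand downstream of RET, stood at 8.19 in serum, 7.52 without it and 7.85 with retinoic acid. Wnt7b, a ligand of the ureteric trunk, stood at 7.27, 7.05 and 6.89, and Wnt9b, made along the bud, at 7.35, 7.14 and 7.35.

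The RET pathway itself was set beside the markers. Of 15 measured RET pathway and tip genes, 9 were lowest in serum-free medium, as Slco4c1 and Adamts18 were. For Slco4c1 both levels on the serum-free arrays lay under the floor, so its lowest medium is not resolved. The order with serum-free medium lowest is not particular to RET pathway genes. Of 11 early nephron genes 8 had it, Lhx1 and Papss2 among them, and their list had a median of -1.02 without serum. In the RET pathway list 2 were called higher with retinoic acid (Ret 2.83-fold and Lhx1 2.44-fold) and 0 lower. Over all genes 1.05% were called higher and 0.613% lower. In that list 2 were called lower without serum (Lhx1 at -1.93 and Ret at -1.16), where 0.699% of genes were. Its median difference was 0.32 in the first comparison and -0.40 in the second. Over the 6 markers it was -0.06 and -0.36, and over all genes 0.00 in each. Whether the markers differ from that list was not tested. Gfra1, the co-receptor gene, stood at 11.10, 10.36 and 11.25 in serum, serum-free medium and retinoic acid. Etv4 stood at 8.65, 8.07 and 8.57 and Etv5 at 10.34, 9.94 and 9.91, so that with retinoic acid Etv4 was close to its serum level and Etv5 was not. Met had its media in the order of Etv5 and not in that of Etv4, and Cxcr4 followed neither. Etv5 differed by -0.03 between the serum-free arrays, and Met by -0.19 without serum. Both lie within the probe set limit of 0.28, so the orders of Met and Etv5 are not resolved. Gdnf, the ligand gene of the mesenchyme, stood at 9.41, 9.31 and 9.15.

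The markers were also set against the general ureteric epithelium, whose summed intensity was 15214 in serum, 11196 without it and 13228 with retinoic acid. The median difference of the 18 epithelial genes was 0.00 in the first comparison, -0.19 in the second and -0.29 in the last. Relative to these medians, Slco4c1 stood at -2.12 without serum, Adamts18 at 1.62 with retinoic acid against serum-free and Met at -1.02. Others lay close, Cxcr4 at -0.13 and Wnt6 at 0.00 with retinoic acid against serum-free, and Met at -0.01 without serum. Such departures were not particular to the markers. The epithelial genes themselves differed by -1.70 to 2.18 in the first comparison. Without serum Calb1 differed by -1.94 and Pax8 by -1.17. Cdh1, the epithelial cadherin gene, stood at 9.37, 9.06 and 9.09, and Epcam, an adhesion gene, at 9.12, 8.92 and 8.66. In that list 2 genes were called higher with retinoic acid, Calb1, a calcium-binding protein gene of the bud, by 2.18 and Krt19, a keratin gene, by 1.40. The 3 called lower, as Met was, were the transcription factor genes Tfap2b (-1.70) and Tfap2a (-1.02) and the cadherin gene Cdh16 (-1.10). With retinoic acid against serum-free, 1.05% of all genes were called higher and 0.613% lower.

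**Figure D3:**
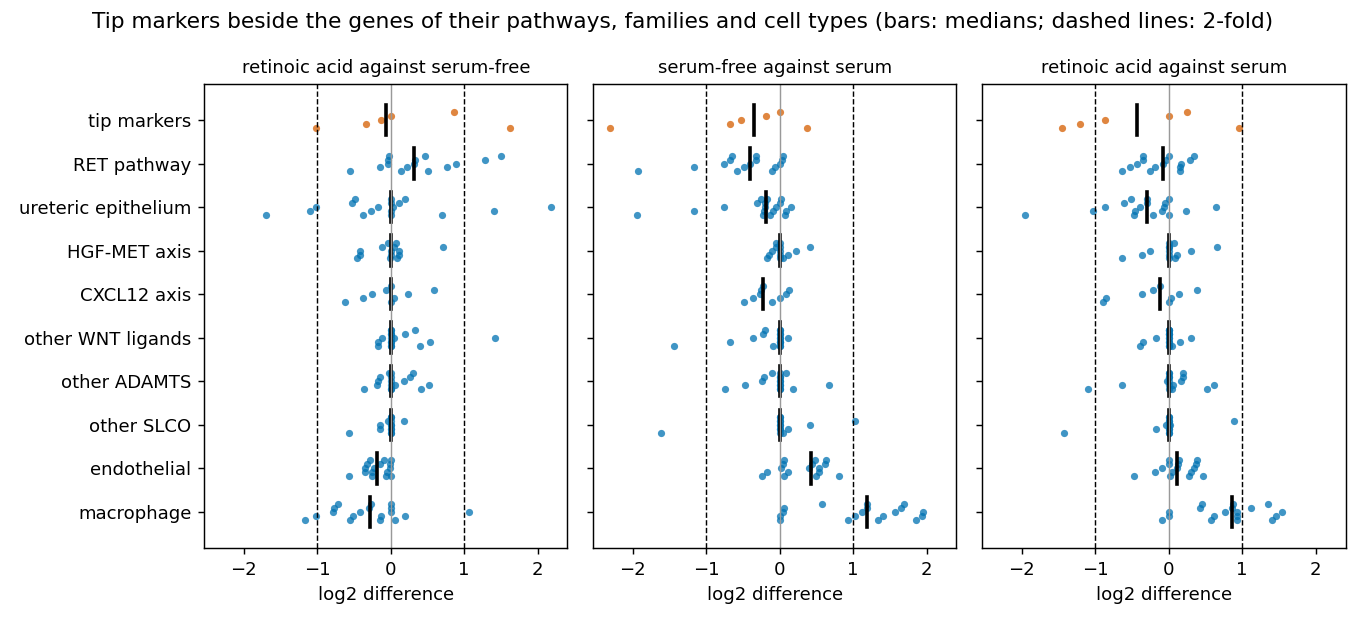
Difference (log2, horizontal axis) of each measured gene of 10 lists in the 3 comparisons, 1 point per gene, with bars at the list medians and dashed lines at 2-fold. The tip markers, in orange, span -1.02 to 1.62 for retinoic acid against serum-free, while the medians of the RET pathway and the macrophage list without serum are -0.40 and 1.19.

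Set against all genes at or above the floor, the decrease of Slco4c1 without serum and the increase of Adamts18 with retinoic acid lay in the thin tails of the distribution. A difference as large in either direction as that of Slco4c1 was seen in 0.0492% of 10156 genes, and as that of Adamts18 in 0.504% of 10111 genes. For Met with retinoic acid the figure was 1.57%, and for Emx2 with retinoic acid against serum 2.50%. Cxcr4 with retinoic acid lay in the body of the distribution, at 26.0%. Slco4c1, Adamts18 and Met entered these comparisons through their higher level. Their lower level lay under the floor, so their shares are uncertain. The markers were also chosen with earlier results of these data known.

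**Figure D4:**
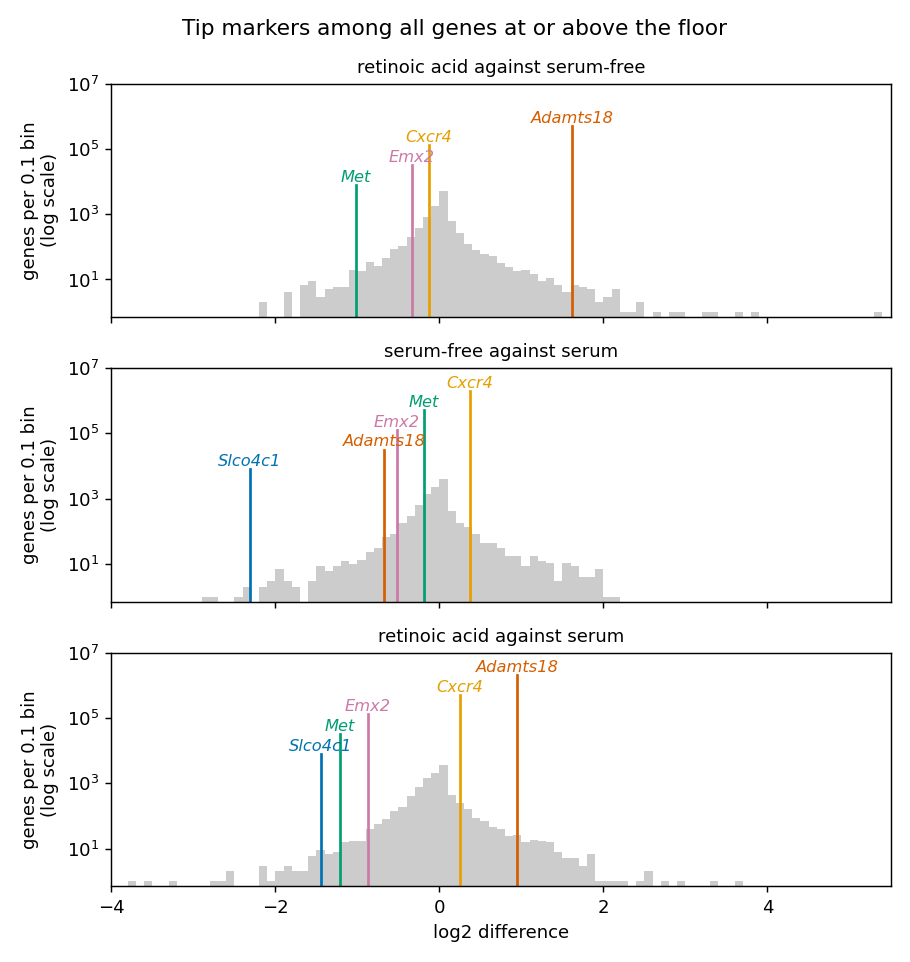
Number of genes at or above the floor (vertical axis, log scale) by log2 difference (horizontal axis, bins of 0.1) in the 3 comparisons, with a line at each tip marker that was at or above the floor on either array. Slco4c1 at -2.31 and Adamts18 at 1.62 stand in the tails, and Cxcr4 at -0.13 and Met at -0.19 near the centre.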

How the data were processed

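Each array received RNA made from 250 ng of total RNA, per the labels' protocols. The file holds probe set intensities, linear in scale, that the authors made with Affymetrix Expression Console 1.1 and RMA, per the submitters' processing notes. Its settings were not given in the sources used here.

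Intensities were taken to log2 with no pseudocount and no further scaling (Python 3.11.15, pandas 2.3.3). Only probe sets with 1 gene symbol in the platform annotation were used (21789 of 35556), and of several for a gene the highest in mean log2. Listed genes without such a probe set are not used here. The values carry no genome build, so the only coordinates are those of RefSeq promoters. Calls need 2-fold and a level at the floor. The steps were tested on simulated data. With 1 array per medium no p-value was computed. Genes named were the 6 markers, fixed partners, up to 4 called genes per list and the 3 nearest genes of each marker with a log2 range of at least 1; others were chosen after their values were seen. Markers and lists were chosen with earlier results of these data known. Alternatives were other probe set rules, a pseudocount of 32, equal medians, cyclic loess (limma 3.58.1, R 4.3.3), other floors and a 1.5-fold rule.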

Additional observations from a re-analysis of the deposited data

How the results depend on the processing

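The alternatives gave 144 differences for the 6 markers, and 135 stayed on their side of the call. Only the pseudocount, equal medians and cyclic loess altered the differences themselves. The other floors and the 1.5-fold rule change only the call. Each marker has 1 probe set, and the probe set rules returned the same values. Where a marker had been called, none of the altered differences changed sign. The number of markers called for retinoic acid against serum-free (2) became 1 with 32 added to the intensities, where Met at -0.86 was no longer called, and 0 when both levels had to reach the floor. For serum-free against serum (1) it became 0 with both levels at the floor and 2 with a 1.5-fold rule, which added Adamts18. For retinoic acid against serum (2) it became 0 and 4 under the same settings, the 1.5-fold rule adding Adamts18 and Emx2. Each 2-fold call of a marker therefore rests on 1 level under the floor. Called genes over the other fixed lists, with the list of retinoid genes left out, went from 21 to 13 with both levels at the floor and to 33 at 1.5-fold in the first comparison, from 21 to 35 at 1.5-fold in the second, and from 12 to 36 at 1.5-fold in the third. The 1.5-fold rule called 4.35%, 4.08% and 5.30% of all genes. In the first comparison the main rule called 106 of 10111 genes higher and 62 lower, and the pseudocount 88 and 42. With both levels at the floor these counts were 62 and 34 of 9805. Under that setting they were 51 and 41 of 9820 in the second comparison, and 56 and 44 of 9785 in the third. Equal medians and cyclic loess left the called markers as they were, and moved the median of all genes by at most -0.069. Shortening the promoters to the 250 bases before the start left AGGTCA in 0 of 6. No paired analysis was possible because each medium has 1 array. For the same reason no array could be left out.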
